A study of Mus musculus with 6 samples.

Results

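Zfp genes encode zinc finger proteins, and the 158 described here were chosen by symbol, from Zfp600 to Zfp999, and by a floor of 60 counts summed over the 6 libraries, out of 49997 genes in the count table. The range is one of numbering, so its genes share a type of protein and not a pathway. Of the 173 genes with such a symbol, 15 lay below the floor. Among these, Zfp980 with 54 counts and Zfp600 with 52 counts lay just under it, Zfp819 had 10 counts, and Zfp616, Zfp640, Zfp663 and Zfp872 were each listed at 0. Just above the floor lay Zfp936 with 63 counts and Zfp811 with 89 counts. All 158 members passed the filter on low counts and were tested.

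The classical zinc finger is a short loop held around a zinc ion by cysteines and histidines, and fingers in tandem read DNA, each finger contacting a few bases. Many mammalian zinc finger proteins also carry a KRAB box near the start of the protein, which binds the corepressor TRIM28 and through it recruits the histone methyltransferase SETDB1, HP1 proteins and the NuRD complex. KRAB zinc finger genes lie in clusters that grew by duplication, and the best studied of them silence transposable elements in embryonic cells. Members without a KRAB box have varied roles, from ribosome assembly to transcriptional control.

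Long-term haematopoietic stem cells (LT-HSCs), the cells that maintain blood formation over a lifetime, were sorted by their level of Asrij, the product of Ociad1 and a protein of endosomes and mitochondria. The groups were Asrij high (3 libraries) and Asrij low (3 libraries), both from bone marrow of C57BL/6J mice aged 4 months. The labels give the strain as the genotype and name no treatment. The count table carries the tag ArjKI, which the labels do not explain, so whether the mice carried an altered Asrij allele is not stated in them. The comparison asks how transcription differs between stem cells rich and poor in Asrij. How Asrij was read in the sort, how pure the gates were, and whether each library came from its own mouse are not stated, so the p-values speak only of the variation among these libraries, part or all of which may be technical. Unless stated otherwise, levels are in CPM, that is, counts divided by each library's TMM-adjusted total, and are given for replicates 1, 2 and 3 in turn. Fold changes are Asrij high over Asrij low, and p-values come from the quasi-likelihood test of edgeR, adjusted over the 21445 genes tested.

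Library totals ran from 62732782 to 72855125 counts in Asrij high and from 24707012 to 46240743 counts in Asrij low. Ociad1 had 86.9, 77.6 and 76.3 CPM in the Asrij high libraries, against 57.9, 50.3 and 46.7 CPM in the Asrij low libraries. The groups did not overlap (log2 fold change 0.64 ± 0.16 SE, adjusted p = 0.0115). That call was lost with library totals as the scaling (adjusted p = 0.133), with upper quartile factors (adjusted p = 0.0834) and without Asrij high replicate 1 (adjusted p = 0.0831). All 10 genes that mark LT-HSCs by their presence (Procr, Hlf, Mecom and others) were lower in Asrij high, with summed levels of 466.5 to 832.5 CPM in Asrij high and 1596 to 1885 CPM in Asrij low. Of 3 genes low or absent on LT-HSCs, Cd34 and Flt3 were lower and Cd48 was not called, with sums of 31.2 to 126.5 CPM in Asrij high and 245.4 to 324.1 CPM in Asrij low. Summed granulocyte and monocyte markers (10 genes, 5 higher and 2 lower) lay at 2064 to 3452 CPM in Asrij high and 239.8 to 991.9 CPM in Asrij low. Erythroid markers (9 genes, 3 higher and 5 lower) summed to 3697 to 7243 CPM in Asrij high and 11100 to 79840 CPM in Asrij low. The lower ones were Alas2 and the globin genes, whose levels were by far the highest of the list. Gata1, Klf1 and Tfrc were higher, with log2 fold changes of 1.63, 2.01 and 2.86. By limma-voom 3 erythroid markers were higher and 0 lower, with 5 lower under an unadjusted p of 0.05. Mesenchymal and endothelial markers (7 of 9 lower) summed to 30.5 to 91.1 CPM in Asrij high and 278.4 to 772.1 CPM in Asrij low. B and plasma cell markers (5 of 6 tested lower) summed to 6.75 to 10.8 CPM in Asrij high and 50.5 to 95.5 CPM in Asrij low. T and NK markers (3 of 6 tested lower) summed to 31.1 to 70.0 CPM in Asrij high and 44.8 to 62.8 CPM in Asrij low. Megakaryocyte markers summed to 171.7 to 679.7 CPM in Asrij high and 351.5 to 573 CPM in Asrij low. Of these edgeR called 0 of the 5 (1 under an unadjusted p of 0.05) and DESeq2 and limma-voom 1 each. Every marker had counts in at least 1 library. The T and NK sums and the megakaryocyte sums overlapped between the groups, and the other sums did not. The part of these markers in the results below was not tested. In bulk RNA, fewer cells of a type and less RNA per cell cannot be told apart.

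Most Zfp600 to Zfp999 genes did not pass the threshold, and those that did were mostly lower in Asrij high. At an adjusted p under 0.05, 34 of the 158 members (21.5%) changed, against 39.4% of all genes tested. Of these, 10 members (6.33%) were higher in Asrij high, against 21.7% of all genes, and 24 (15.2%) were lower, against 17.7% of all genes. The median log2 fold change was -0.25 over the members and -0.02 over all genes, and the median absolute change was 0.43 over the members and 0.86 over all genes. The 2 sets had nearly the same median level (10.04 CPM over the members, 9.96 CPM over all genes), and the median standard error was 0.29 for the members and 0.36 for all genes. A change of at least 2-fold, called or not, was seen in 28 members (17.7%), against 43.9% of all genes. For 61 members (38.6%), 17 higher and 44 lower in Asrij high, the groups did not overlap, against 55% of all genes.

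The share of members called was also below that of all genes among genes of like level. Between 1 and 10 CPM, 13 of 71 members (18.3%) were called, against 31.5% of all genes, and between 10 and 100 CPM 16 of 69 (23.2%), against 53.4%. At 100 CPM or more, 5 of 10 members were called, 1 higher and 4 lower. Of all genes at that level 66% were called, 52.4% of the genes being higher and 13.6% lower. As a share of all counts the members took 0.297%, 0.344% and 0.321% in Asrij high and 0.447%, 0.438% and 0.39% in Asrij low. Their summed level was 3415, 3580 and 3550 CPM in Asrij high, against 3817, 4073 and 3717 CPM in Asrij low, so each sum was lower in each Asrij high library than in any Asrij low library. Summed KRAB members overlapped between groups, with 1270, 1310 and 1429 CPM in Asrij high, against 1395, 1636 and 1381 CPM in Asrij low. Members without a KRAB box did not, with 2120, 2233 and 2096 CPM in Asrij high, against 2379, 2395 and 2297.5 CPM in Asrij low. Among the latter, Zfp608 alone averaged 45.6 CPM in Asrij high, against 210.4 CPM in Asrij low.

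**Figure D1:**
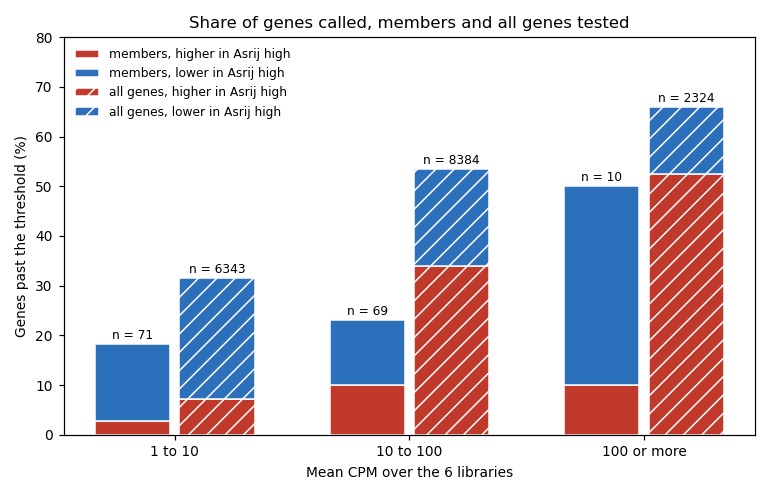
Percentage of genes past an adjusted p of 0.05 (edgeR) by mean CPM over the 6 libraries, for Zfp600 to Zfp999 members (plain bars) and all genes tested (hatched bars), split into genes higher (red) and lower (blue) in Asrij high; n is the number of genes. The members' bars are shorter in each of the 3 ranges drawn, and their red parts cover 2.82%, 10.1% and 10% of members.

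These counts rest on a few libraries and on the scaling. Without Asrij high replicate 1, 16 members were called (3 higher, 13 lower), and without Asrij high replicate 3, 18 (4 higher, 14 lower). Library totals gave 3 higher and 36 lower members and upper quartile factors 3 higher and 44 lower, so that 7.69% and 6.38% of the calls were rises in place of 29.4%. Both scalings moved the median of all genes, by -0.27 each, and that of the members to -0.51, so the members' median less that of all genes was -0.22 under either and -0.23 with TMM. This difference was -0.07 without Asrij high replicate 1, -0.14 without Asrij high replicate 2 and -0.08 without Asrij low replicate 2, where the members' own median was -0.08, and -0.08 with no filter on low counts.

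**Figure D2:**
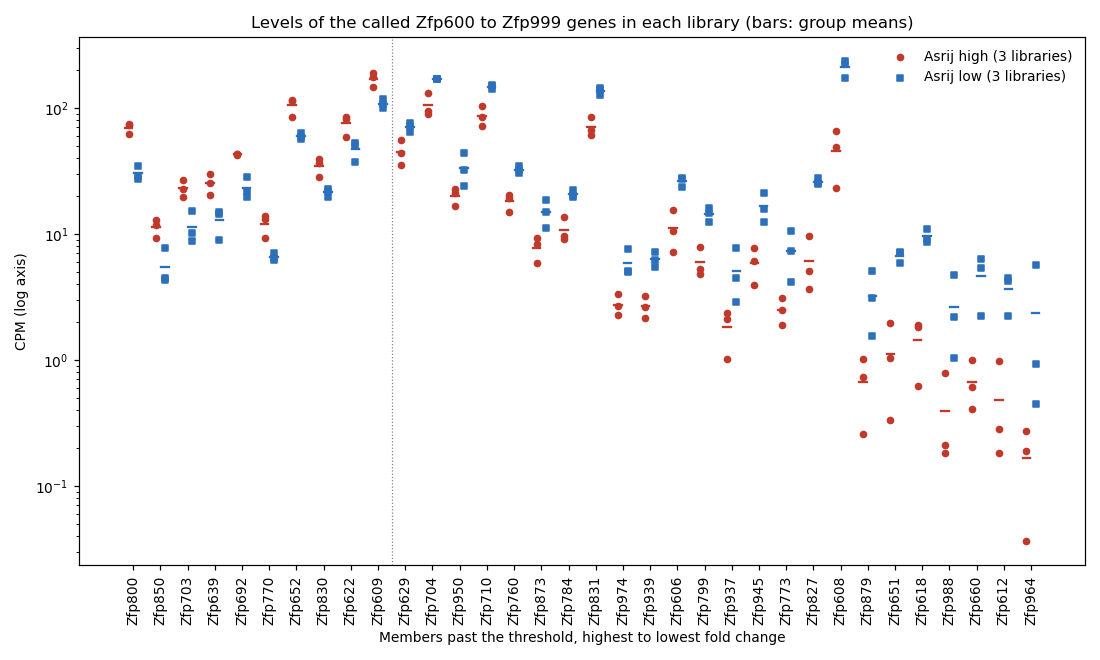
Level in CPM (log axis) of the 34 members past an adjusted p of 0.05 in each Asrij high library (red circles) and Asrij low library (blue squares), with group means as bars, ordered by fold change; the dotted line parts the 10 genes higher in Asrij high from the 24 lower ones. Zfp800 lies at 61.9 to 74.3 CPM in Asrij high and 27.0 to 34.7 CPM in Asrij low, and Zfp608 at 23.1 to 65.3 CPM in Asrij high and 172.4 to 234.2 CPM in Asrij low.

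Of the 155 members with a coding sequence in the GENCODE annotation, 110 held a stretch that a KRAB box profile recognised and 45 did not. Zfp783 and Zfp939 had exons but no coding sequence there, and Zfp660 had no exons there under that symbol, so these genes belong to neither class. KRAB members had a median of 11 fingers (0 to 33), and those without the box a median of 7 (0 to 27); 6 members, among them Zfp703 and Zfp750, matched the finger spacing searched for nowhere. The coding DNA of the start of the box is shown for 5 KRAB members, since the box defines the class. Zfp850 is the KRAB member that rose, Zfp964 had the largest fall, Zfp945 fell under every alternative run, and Zfp809 and Zfp932 are known for silencing retroviral elements. Each run is 108 bases of the sense strand from GENCODE transcripts, and capitals mark the third and the fourth codon of the stretch, which encode aspartate and valine in 104 of the 109 members that hold the whole stretch (Zfp945 is not one of these).
Zfp850, codons 16 to 51: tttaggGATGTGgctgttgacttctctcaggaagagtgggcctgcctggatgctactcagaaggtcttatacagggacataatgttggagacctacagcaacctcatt
Zfp964, codons 5 to 40: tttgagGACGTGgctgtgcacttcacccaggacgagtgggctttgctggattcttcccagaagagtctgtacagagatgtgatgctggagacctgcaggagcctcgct
Zfp945, codons 15 to 50: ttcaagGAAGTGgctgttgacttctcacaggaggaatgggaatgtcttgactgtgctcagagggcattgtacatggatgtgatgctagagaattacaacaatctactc
Zfp809, codons 6 to 41: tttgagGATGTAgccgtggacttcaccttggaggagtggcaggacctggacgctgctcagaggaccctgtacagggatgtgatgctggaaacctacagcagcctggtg
Zfp932, codons 7 to 42: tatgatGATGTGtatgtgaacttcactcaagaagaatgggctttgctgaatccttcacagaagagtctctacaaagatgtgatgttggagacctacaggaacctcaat
Base identity of these stretches to that of Zfp809 was 71.3% for Zfp850, 75% for Zfp964, 69.4% for Zfp945 and 64.8% for Zfp932, within a range of 54.6% to 94.4% and at or near the median of 69.4% over the KRAB members. The stretch started at a median of codon 15.

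The called KRAB members were lower in Asrij high with 1 exception, whereas members without the box went both ways. Of 110 KRAB members 14 (12.7%) were called, 1 higher and 13 lower in Asrij high, and their median log2 fold change was -0.32. The 11.8% lower and 0.909% higher stand against 17.7% lower and 21.7% higher over all genes. Between 1 and 10 CPM, 11.3% of 62 KRAB members were lower and 1.61% higher, against 24.2% and 7.28% of all genes there. Of 45 members without the box 18 (40%) were called, 9 higher and 9 lower, near the 39.4% of all genes, with a median of -0.10. The classes differ in level, with a median of 7.43 CPM for KRAB members and 29.3 CPM for the others. Between 10 and 100 CPM, 6 of 41 KRAB members were called, each lower, and 10 of 27 members without the box, 7 higher and 3 lower, where 34% of all genes were higher and 19.4% lower. The classes were not tested against each other. Without Asrij high replicate 1, 5 KRAB members were called lower, and of the others 3 were higher and 7 lower. Without Asrij high replicate 3, 6 KRAB members were lower, and of the others 4 were higher and 7 lower. With upper quartile factors 30 KRAB members were lower, with library totals 23 and with DESeq2 22, while 3 members without the box were higher under each of the first 2 scalings and 9 under DESeq2. Over the alternatives run, the number of KRAB members called higher ranged from 0 to 3. A shorter fixed pattern for the box found it in 72 members, of which 1 was higher and 9 were lower.

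**Figure D3:**
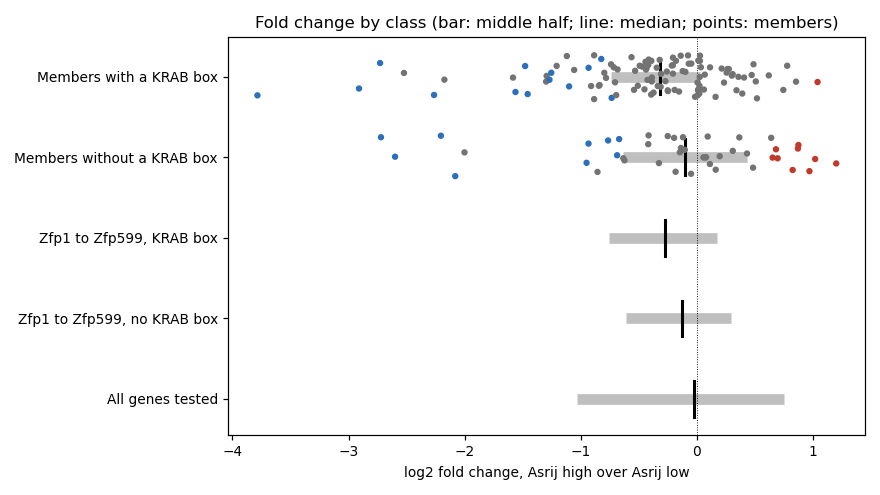
Log2 fold change (Asrij high over Asrij low) of KRAB and non-KRAB members (points; red called higher, blue called lower, grey not called; spread up and down for visibility only) with the median (black line) and range from the lower to the upper quartile (grey bar) of each class, of Zfp1 to Zfp599 by class and of all genes tested. The medians are -0.32 for KRAB members, -0.10 for members without the box and -0.02 for all genes.

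Zfp850 (chromosome 7, 27984471 to 28014210) was the KRAB member past the threshold in the upward direction, with 11.7, 9.35 and 12.8 CPM in the Asrij high libraries and 4.48, 7.69 and 4.29 CPM in the Asrij low libraries. The groups did not overlap, with means of 11.3 ± 1.75 CPM in Asrij high, against 5.48 ± 1.91 CPM in Asrij low (SD, n = 3 each). The log2 fold change was 1.04 ± 0.33 SE at an adjusted p of 0.0316. This call depended on single libraries: the adjusted p was 0.104 without Asrij high replicate 1, 0.134 without Asrij high replicate 3, 0.0889 without Asrij low replicate 1, 0.0773 without Asrij low replicate 3 and 0.0611 without both Asrij high replicate 2 and Asrij low replicate 3. It was also lost with library totals and upper quartile factors (adjusted p = 0.0955 and 0.0777).

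The largest falls among KRAB members were in genes of low level. Zfp964 (chromosome 8, 69654463 to 69667132) had 2, 12 and 18 counts in Asrij high, against 24, 164 and 24 counts in the shallower Asrij low libraries, or 0.0367 to 0.273 CPM in Asrij high, against 0.444 to 5.68 CPM in Asrij low. Its log2 fold change, -3.79 ± 1.13 SE with an adjusted p of 0.0247, rested on Asrij low replicate 2, without which it was -1.98 (adjusted p = 0.191), and the call was also lost without Asrij high replicate 1 (0.0686) or 2 (0.0611), without both Asrij high replicate 2 and Asrij low replicate 3 (0.0645), and with limma-voom (0.112). Zfp612 (chromosome 8, 110079705 to 110092753) had 10, 18 and 64 counts in Asrij high and 239, 64 and 110 counts in Asrij low, which is at most 0.971 CPM in Asrij high, against at least 2.22 CPM in Asrij low (log2 -2.91 ± 0.72 SE, adjusted p = 0.0109, and 0.0701 with Asrij high replicate 2 and Asrij low replicate 3 both left out). Neither gene's groups overlapped on the CPM scale. Zfp879 (chromosome 11, 50828994 to 50841587) had 0.257, 1.02 and 0.728 CPM in Asrij high, against 1.54, 3.08 and 5.1 CPM in Asrij low (log2 -2.26 ± 0.68 SE, adjusted p = 0.0262). That call was lost without Asrij high replicate 1 or 3 or Asrij low replicate 3 (adjusted p = 0.0768, 0.0677 and 0.0796), or without both Asrij high replicate 2 and Asrij low replicate 3 (0.0708). Zfp773 (chromosome 7, 7130678 to 7136755) had 1.87, 3.09 and 2.5 CPM in Asrij high, against 7.37, 10.5 and 4.17 CPM in Asrij low (log2 -1.56 ± 0.43 SE, adjusted p = 0.0182). Leaving out Asrij high replicate 1 or 3 or Asrij low replicate 1 or 2 gave adjusted p-values of 0.0608, 0.0521, 0.0532 and 0.063. Zfp988 (chromosome 4, 147305604 to 147334067) stood at 0.184, 0.785 and 0.212 CPM in Asrij high, against 1.04, 4.68 and 2.2 CPM in Asrij low (log2 -2.73 ± 0.82 SE, adjusted p = 0.0263). Of its transcript's 50-base words 68.1% also occur in another gene, so its value is uncertain as that of a single gene. It lost the call without Asrij high replicate 1 or 3 or Asrij low replicate 2 (adjusted p = 0.0836, 0.0875 and 0.103).

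Firmer falls came from KRAB genes with more counts. Zfp606, Zfp760, Zfp799 and Zfp945 passed under each of the 15 alternatives run, and these 4 were picked out after their values were seen. Zfp606 had 7.16, 15.4 and 10.5 CPM in Asrij high, against 27.4, 27.95 and 23.5 CPM in Asrij low (log2 -1.25 ± 0.29 SE, adjusted p = 0.00873). Zfp945 had 3.95, 7.68 and 6.1 CPM in Asrij high, against 12.4, 21.2 and 15.9 CPM in Asrij low (log2 -1.48 ± 0.33 SE, adjusted p = 0.00734). In both, every Asrij high library lay below every Asrij low library. Zfp799 averaged 5.95 ± 1.61 CPM in Asrij high, against 14.3 ± 1.77 CPM in Asrij low, and Zfp760 18.2 ± 2.94 CPM in Asrij high, against 32.2 ± 2 CPM in Asrij low (SD, n = 3 each), log2 fold changes of -1.27 and -0.82.

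The KRAB members known for silencing retroviral elements did not pass the threshold. Zfp809, which recognises the proline primer binding site of murine leukaemia viruses and silences them in mouse embryonic stem cells, had 27.4, 22.9 and 28.3 CPM in Asrij high, against 19.9, 24.9 and 18.6 CPM in Asrij low, and the groups overlapped (log2 0.31 ± 0.21 SE, adjusted p = 0.276). Zfp932, which binds endogenous retroviruses of the ERVK class in mouse embryonic stem cells, had 31.9, 27.3 and 33.7 CPM in Asrij high, against 24.6, 20.4 and 21.1 CPM in Asrij low. Its groups did not overlap, and its log2 fold change of 0.49 ± 0.20 (SE) missed the threshold (adjusted p = 0.074), except without Asrij high replicate 2 (0.0452). Of its 50-base words 37% occur in its paralogue Gm15446 or another gene. Zfp708, which represses RMER19B elements in the mouse, had 1.19, 1.59 and 1.33 CPM in Asrij high, against 0.574, 2.49 and 1 CPM in Asrij low (log2 0.02 ± 0.66 SE, adjusted p = 0.982), with 94.9% of its words shared and a sign that turned under 9 of 15 alternatives. Zfp667, also called Mipu1 after its induction by ischaemic preconditioning of the heart, had 6.78 ± 1.19 CPM in Asrij high, against 5.67 ± 0.67 CPM in Asrij low (SD, n = 3 each, adjusted p = 0.545). Zfp777 had the smallest standard error among KRAB members not called, with 78.3, 81.6 and 67.7 CPM in Asrij high, against 57.8, 62.6 and 53.1 CPM in Asrij low (log2 0.39 ± 0.16 SE, adjusted p = 0.0741), and its groups did not overlap. Zfp871, the KRAB member with the most counts, had 165 ± 19.3 CPM in Asrij high, against 170.5 ± 20.8 CPM in Asrij low (SD, n = 3 each, log2 -0.05 ± 0.16 SE, adjusted p = 0.842). At the low end Zfp811 had 4, 14 and 4 counts in Asrij high and 20, 25 and 22 counts in Asrij low, groups that did not overlap as CPM (log2 -2.52 ± 1.05 SE, adjusted p = 0.0848, and 0.0354 with DESeq2). Zfp936 had 19, 1 and 20 counts in Asrij high and 0, 20 and 3 counts in Asrij low, which overlap.

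**Figure D4:**
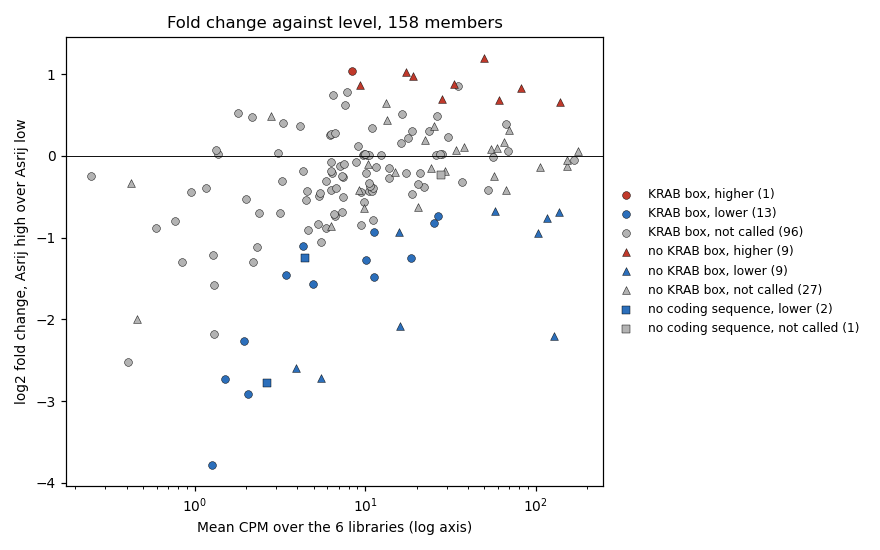
Log2 fold change (Asrij high over Asrij low) against mean CPM over the 6 libraries (log axis) for the 158 members, by KRAB class (circles, triangles, squares) and call (red higher, blue lower, grey not called). Blue circles, the 13 KRAB members called lower, lie below 30 CPM, and the 9 red triangles lie between 9 and 150 CPM.

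Members without a KRAB box that rose had higher levels, and the strongest and steadiest of them was Zfp800. Zfp800 (chromosome 6, 28210548 to 28398033) had 74.3, 61.9 and 72.4 CPM in the Asrij high libraries, against 29.0, 34.7 and 27.0 CPM in the Asrij low libraries. Its log2 fold change of 1.20 ± 0.18 (SE) had the smallest adjusted p of the members, 0.00115, and passed under all 15 alternatives (adjusted p up to 0.00876). Zfp652 (chromosome 11, 95749067 to 95764715), whose human counterpart works with the corepressor CBFA2T3, had 114.2, 84.4 and 116.2 CPM in Asrij high, against 56.8, 62.6 and 58.2 CPM in Asrij low (log2 0.83 ± 0.17 SE, adjusted p = 0.00511) and also passed under all 15. For both genes the lowest Asrij high library, replicate 2, lay above the highest Asrij low library, also replicate 2.

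The other rises without the box were smaller or less steady. Zfp703 (chromosome 8, 26977336 to 26981462), a corepressor of the NET family whose human counterpart is amplified in breast cancer, had 27.0, 22.8 and 19.6 CPM in Asrij high, against 8.79, 10.2 and 15.3 CPM in Asrij low (log2 1.02 ± 0.27 SE, adjusted p = 0.0157). Zfp692 (chromosome 11, 58307057 to 58315145) had 43.4, 42.8 and 41.9 CPM in Asrij high, against 28.4, 19.5 and 21.8 CPM in Asrij low (log2 0.88 ± 0.20 SE, adjusted p = 0.0077); library totals as the scaling gave an adjusted p of 0.0598. Zfp639 (chromosome 3, 32510264 to 32520833), called ZASC1 in human, had 25.2, 20.5 and 29.7 CPM in Asrij high, against 14.4, 15.03 and 8.92 CPM in Asrij low (log2 0.97 ± 0.27 SE, adjusted p = 0.0187). In these 3 genes the groups did not overlap. Zfp622 (chromosome 15, 25984366 to 25998482), the counterpart of yeast Rei1 in late maturation of the large ribosomal subunit, had 84.4, 59.0 and 81.8 CPM in Asrij high, against 50.4, 52.8 and 37.1 CPM in Asrij low (log2 0.68 ± 0.21 SE, adjusted p = 0.0265). Zfp830 (chromosome 11, 82764345 to 82767622), also called Omcg1 and needed by dividing cells of the early mouse embryo, had 36.6, 28.02 and 39.3 CPM in Asrij high, against 22.5, 21.9 and 19.7 CPM in Asrij low (log2 0.70 ± 0.20 SE, adjusted p = 0.0234). Zfp609 (chromosome 9, 65691578 to 65827564), which works with Nipbl and the Integrator complex in mouse cortical progenitors, had 187.1, 146.3 and 176.7 CPM in Asrij high, against 107, 99.1 and 118.2 CPM in Asrij low (log2 0.65 ± 0.16 SE, adjusted p = 0.0111). Again every Asrij high library stood above every Asrij low library, and the same held for Zfp770, with 12.1 ± 2.38 CPM in Asrij high, against 6.58 ± 0.469 CPM in Asrij low (SD, n = 3 each, log2 0.87 ± 0.28 SE, adjusted p = 0.0317).

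Single libraries ended most of these calls. Without Asrij high replicate 1 the adjusted p was 0.09 for Zfp703, 0.0579 for Zfp639, 0.122 for Zfp622, 0.114 for Zfp830, 0.0834 for Zfp609 and 0.173 for Zfp770. Without Asrij high replicate 3 it was 0.0944 for Zfp639, 0.105 for Zfp622, 0.141 for Zfp830, 0.0684 for Zfp609 and 0.159 for Zfp770. Leaving out Asrij low replicate 1 ended the calls of Zfp703 (0.0536), Zfp622 (0.0502) and Zfp770 (0.0558), leaving out Asrij low replicate 2 that of Zfp770 (0.0548), and leaving out Asrij low replicate 3 those of Zfp622 (0.0893), Zfp830 (0.0698) and Zfp770 (0.069). With library totals or upper quartile factors Zfp609, Zfp622, Zfp639, Zfp770 and Zfp830 were not called, nor was Zfp703 with upper quartile factors, and each kept a positive log2 fold change.

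Of the falls without the box, those of Zfp608, Zfp618, Zfp651 and Zfp827 were larger on the log2 scale than the largest rise, and the other 5 lay within the range of the rises. Zfp608 (chromosome 18, 54888045 to 54992591), which represses the Rag genes in mouse thymocytes, had 23.1, 65.3 and 48.5 CPM in the Asrij high libraries and 172.4, 224.5 and 234.2 CPM in the Asrij low libraries, which gave log2 -2.20 ± 0.34 (SE) at an adjusted p of 0.00131. Zfp618 (chromosome 4, 62965555 to 63139709), a partner of the 5-hydroxymethylcytosine reader UHRF2, had 0.624, 1.82 and 1.88 CPM in Asrij high, against 9.13, 8.66 and 10.9 CPM in Asrij low (log2 -2.72 ± 0.47 SE, adjusted p = 0.00213). Zfp827 (chromosome 8, 79027486 to 79193768), whose human counterpart brings NuRD to telomeres, had 3.67, 9.66 and 5.04 CPM in Asrij high, against 25.4, 24.8 and 27.5 CPM in Asrij low (log2 -2.08 ± 0.35 SE, adjusted p = 0.0021). In all 3 the highest Asrij high library lay below the lowest Asrij low library by more than 2-fold, and the call held under all 15 alternatives. Zfp651 (chromosome 9, 121759319 to 121771742), a BTB-domain protein named ZBTB47 in human, had 0.331, 1.95 and 1.03 CPM in Asrij high, against 7.13, 7.1 and 5.91 CPM in Asrij low (log2 -2.60 ± 0.60 SE, adjusted p = 0.00793). Zfp710 averaged 86.5 ± 15.7 CPM in Asrij high, against 146.9 ± 5.69 CPM in Asrij low, and Zfp704 104.9 ± 22.8 CPM in Asrij high, against 168.8 ± 0.769 CPM in Asrij low (SD, n = 3 each), log2 fold changes of -0.76 and -0.69 (adjusted p = 0.00703 and 0.0142). Zfp704 lost its call without Asrij low replicate 1 (0.0537). Zfp660 (chromosome 9, 122903248 to 122914158), in neither class for want of a GENCODE entry under that symbol, had 0.404, 1 and 0.607 CPM in Asrij high, against 6.26, 5.33 and 2.24 CPM in Asrij low (log2 -2.77 ± 0.58 SE, adjusted p = 0.00528).

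Several abundant members without the box gave values close together in the 2 groups. Zfp740 had 155.9, 147.2 and 145.5 CPM in Asrij high, against 150.4, 163.9 and 149.7 CPM in Asrij low (log2 -0.05 ± 0.14 SE, adjusted p = 0.808). Zfp646, with 27 fingers, had 185.3, 187.1 and 171.9 CPM in Asrij high, against 190.5, 160.9 and 171.5 CPM in Asrij low (log2 0.06 ± 0.15 SE, adjusted p = 0.783). The groups overlapped in both, and standard errors were among the smallest of the members. Zfp687, a partner of ZMYND8 in human cells, averaged 145.5 ± 11.4 CPM in Asrij high, against 157.9 ± 18.9 CPM in Asrij low, and Zfp644, which with WIZ guides the histone methyltransferases G9a and GLP, 100.6 ± 10.2 CPM in Asrij high, against 110.6 ± 9.76 CPM in Asrij low (SD, n = 3 each, adjusted p = 0.586 and 0.519). Zfp638, a DNA-binding protein that directs silencing of unintegrated retroviral DNA through the HUSH complex, averaged 68.7 ± 6.25 CPM in Asrij high, against 61.3 ± 11.3 CPM in Asrij low (log2 0.16 ± 0.18 SE, adjusted p = 0.501). Zfp706, a repressor of Klf4 in mouse embryonic stem cells, averaged 60.9 ± 4.57 CPM in Asrij high, against 57.0 ± 10.3 CPM in Asrij low (log2 0.09 ± 0.18 SE, adjusted p = 0.709). At low levels, Zfp750, a regulator of epidermal differentiation, had 3.4, 3.27 and 3.17 CPM in Asrij high, against 3.87, 2.56 and 0.541 CPM in Asrij low (adjusted p = 0.568). Zfp711, an X-linked partner of the demethylase PHF8 in human, had 6, 2 and 27 counts in Asrij high and 66, 0 and 26 counts in Asrij low (adjusted p = 0.311).

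Levels were compared between genes per kilobase of GENCODE exon, which 157 members have. The median member stood at 2.36 CPM per kb in Asrij high, against 2.80 CPM per kb in Asrij low, with medians of 1.79 in Asrij high and 2.10 in Asrij low for KRAB members and 6.12 in Asrij high and 6.30 in Asrij low for those without the box. The highest level was that of the KRAB member Zfp869, at 35.3 CPM per kb in Asrij high, against 35.7 CPM per kb in Asrij low. Its annotated exons cover 1590 bases, against a median of 3563 bases over KRAB members, and its rank depends on that length. Zfp740 followed with 29.4 CPM per kb in Asrij high, against 30.4 CPM per kb in Asrij low, then Zfp687 with 24.5 CPM per kb in Asrij high, against 26.5 CPM per kb in Asrij low. Zfp830 and Zfp692, both higher in Asrij high, came next in that group with 21.8 and 21.7 CPM per kb, against 13.4 and 11.8 CPM per kb in Asrij low. The lowest in Asrij high was Zfp964, at 0.0218 CPM per kb in Asrij high, against 0.309 CPM per kb in Asrij low, and the lowest in Asrij low was Zfp936, at 0.068 CPM per kb in Asrij high, against 0.0823 CPM per kb in Asrij low. Zfp869 and the lowest and highest ranks were picked out after their values were seen.

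The members lie on 18 chromosomes, with 35 on chromosome 7, 22 on chromosome 17, 15 on chromosome 8, 14 on chromosome 4 and 13 on chromosome 2. Zfp genes whose starts lie within 500 kb of the next were joined into clusters. Of 35 members with no Zfp neighbour in that distance 16 (45.7%, near the 39.4% of all genes) were called, 8 higher and 8 lower, and 27 of these 35 lack a KRAB box. Of 80 members in clusters of 2 to 9 Zfp genes, 14 (17.5%) were called, 2 higher and 12 lower, and of 43 in clusters of 10 or more, 4 (9.3%), each lower; in the last DESeq2 called 8 lower and limma-voom 5. The cluster of 23 Zfp genes on chromosome 17 holds 14 members, each with a KRAB box and with a median log2 fold change of -0.32, of which Zfp760 and Zfp945 were lower and the other 12 were not called. On chromosome 13 edgeR called 0 of 10 members, with 1 under an unadjusted p of 0.05, DESeq2 0 and limma-voom 1. Lone members mostly lack the box, so position and class overlap in large part, and the part of each in the calls was not tested. Counted over all members, 36 shared at least 20% of their 50-base words with another gene and 18 at least 50%. Why words were shared was not tested. Of the called members, Zfp988, Zfp937 (29.4%) and Zfp784 (94.7%, with its neighbour Zfp865 as the top partner) were among these 36. The median was 2.84%, and the way the authors counted multiply mapped reads is not given in the sources used here.

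Start-site windows, 250 bases before to 50 after each start in RefSeq on GRCm38.p6, were at hand for 135 members, and short motifs were looked for on both strands. CCAAT, the box bound by NF-Y, was in 69 of 99 KRAB members (69.7%), in 14 of 33 members without the box (42.4%) and in 41.1% of 27025 genes. These 27025, called all genes in this paragraph, are every gene with a window, whether or not it was tested here. GGGCGG, the GC box bound by SP1-type factors, was in 38 of 99 KRAB members (38.4%), 23 of 33 without the box (69.7%) and 38.2% of all genes. The ETS motif CCGGAAG was in 23.2% of KRAB members, 12.1% of those without the box and 9.93% of all genes. The E2F motif GCGGGAA was in 4.04% of KRAB members, 15.2% of those without the box and 5.29% of all genes. None of the 10 motifs searched contains another; the rest were AAGATGG for YY1, ACTACA as part of the ZNF143 site, AGATAA for GATA factors, CCCTC as part of the CTCF site, and the NRF1 and Kaiso motifs. The median number of CG dinucleotides in a window was 9 for KRAB members, 22 for the others and 7 for all genes. Of 20 members called lower with a window 14 (70%) held CCAAT, and of 8 called higher 3 (37.5%) did, against 85 of all 135 members (63%). The GC box was in 10 of the 20 and in 4 of the 8, 50% each, against 46.7% of the 135. Members called higher mostly lack the KRAB box, and motifs were not tested against calls. A match is a description of the letters and not a site. The windows of Zfp799 and Zfp606, KRAB members that fell, and of Zfp800, the steadiest rise, show the 2 boxes, with CCAAT and GGGCGG on either strand in capitals.
Zfp799, chr17:32830212-32830511, minus strand: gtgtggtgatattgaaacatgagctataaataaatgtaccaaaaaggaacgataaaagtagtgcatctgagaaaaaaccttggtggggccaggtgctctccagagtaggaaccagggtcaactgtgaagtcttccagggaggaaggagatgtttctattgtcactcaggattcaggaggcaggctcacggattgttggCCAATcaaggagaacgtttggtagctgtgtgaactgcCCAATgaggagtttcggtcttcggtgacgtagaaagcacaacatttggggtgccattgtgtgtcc
Zfp606, chr7:12478055-12478354, plus strand: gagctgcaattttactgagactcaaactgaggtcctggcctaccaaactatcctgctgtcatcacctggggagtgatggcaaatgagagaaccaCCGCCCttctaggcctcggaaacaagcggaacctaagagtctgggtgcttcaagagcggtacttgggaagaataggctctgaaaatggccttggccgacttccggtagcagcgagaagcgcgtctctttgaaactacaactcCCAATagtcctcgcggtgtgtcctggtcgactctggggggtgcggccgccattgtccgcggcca
Zfp800, chr6:28397956-28398255, minus strand: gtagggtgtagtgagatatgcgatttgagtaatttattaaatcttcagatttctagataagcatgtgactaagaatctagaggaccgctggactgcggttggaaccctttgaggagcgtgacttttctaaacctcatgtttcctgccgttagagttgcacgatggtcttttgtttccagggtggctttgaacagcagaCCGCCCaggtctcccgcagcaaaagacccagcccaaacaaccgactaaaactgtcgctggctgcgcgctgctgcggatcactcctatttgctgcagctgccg
Zfp799 held CCAAT 2 times, Zfp606 held each box 1 time, and Zfp800 held a GC box 1 time and no CCAAT.

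KRAB corepressor genes, taken with wider heterochromatin genes, were called higher more often than all genes, and they were not tested against genes of like level. Of 22 genes tested from a list of KRAB corepressor and heterochromatin genes, 13 were higher in Asrij high and the other 9 were not called (DESeq2 called 12 higher and 1 lower), with a median log2 fold change of 0.69. That is 59.1% higher, at a median level of 111.1 CPM, against 21.7% of all genes and 52.4% of genes at 100 CPM or more, whose median log2 fold change was 0.57. Part of the list lay under 100 CPM, down to Suv39h2 at a mean of 11.4 CPM. Between 10 and 100 CPM, 34% of all genes were higher. Uhrf1, which guides maintenance methylation, had 488.8, 371.9 and 495.5 CPM in Asrij high, against 89.5, 115.8 and 98.1 CPM in Asrij low (log2 2.16). Suv39h1, a histone H3 lysine methyltransferase, had 135.8, 113 and 124 CPM in Asrij high, against 36.5, 45.2 and 39.3 CPM in Asrij low (log2 1.62), and the HP1 gene Cbx5 and the methyltransferase gene Dnmt1 had log2 fold changes of 1.72 and 1.38. In Uhrf1 and Suv39h1 each Asrij high library lay more than 2-fold above each Asrij low library. Trim28 itself had 475.1, 466.9 and 437 CPM in Asrij high, against 358.6, 370.6 and 283 CPM in Asrij low, groups that did not overlap, and missed the threshold (log2 0.45, adjusted p = 0.059). Setdb1 was higher, with 137.4, 114 and 138.3 CPM in Asrij high, against 77.7, 75.5 and 59.3 CPM in Asrij low (log2 0.87, adjusted p = 0.0038); Trim28 and Setdb1 were picked out after their values were seen. Without Asrij high replicate 1, 8 of the list's genes were called.

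**Figure D5:**
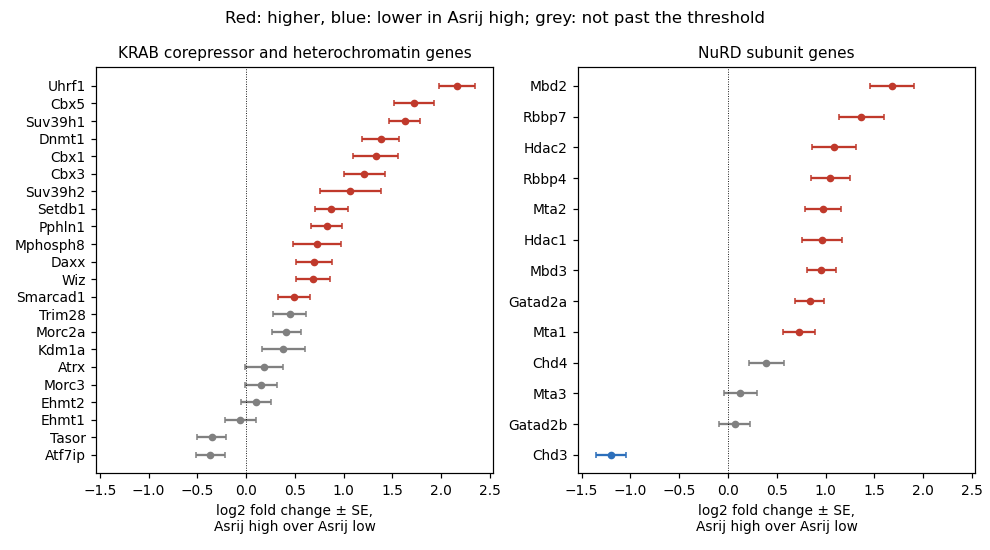
Log2 fold change (Asrij high over Asrij low) with its standard error for the 22 tested KRAB corepressor and heterochromatin genes (left) and the 13 NuRD subunit genes (right); red and blue points passed an adjusted p of 0.05, grey ones did not. On the left 13 genes are red, and on the right 9 are red and Chd3 is blue.

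Among 13 NuRD subunits 9 (69.2%) were higher in Asrij high and 1 was lower, with a median log2 fold change of 0.96 and a median level of 193.9 CPM, a range in which 52.4% of all genes were higher and 13.6% lower. The fall was in the remodeller gene Chd3, with 113.3, 132.1 and 124.1 CPM in Asrij high, against 262.9, 303 and 281.8 CPM in Asrij low (log2 -1.20). The methyl-CpG binding protein gene Mbd2 had 232.7, 163.5 and 237.3 CPM in Asrij high, against 49.3, 80 and 68.5 CPM in Asrij low (log2 1.68), and Mbd3 and Rbbp7 had log2 fold changes of 0.96 and 1.37. All 18 of 18 S phase and mitosis genes were also higher in Asrij high (median log2 2.73), and their part in the corepressor values was not tested.

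Other zinc finger genes also had more falls than rises among their calls, and they were not tested against the members. Of 185 tested Zfp1 to Zfp599 genes with the same count floor 50 (27%) were called, 15 higher and 35 lower, with a median log2 fold change of -0.21. The 18.9% lower is close to the 17.7% of all genes, and the 8.11% higher is below the 21.7% of all genes. Among their 102 KRAB genes 5 were higher and 20 lower (median -0.27), and among 81 without the box 10 were higher and 15 lower (median -0.13). Of 23 genes tested from a list of SCAN zinc fingers, 1 was higher (Zscan22, log2 0.55) and 3 lower (Zscan2, -2.14, Zscan26, -0.66, and Zscan18, -0.93). The SCAN calls were 17.4% of the list, against 39.4% of all genes. Of 38 BTB zinc fingers 12 (31.6%) were called, 4 higher and 8 lower, among them Zbtb4 (log2 -2.01), Zbtb10 (-1.49), Zbtb20 (-2.06) and Zbtb46 (3.29). Leaving out Asrij high replicate 1 left 25 calls among Zfp1 to Zfp599, 1 among the SCAN genes and 7 among the BTB genes, and leaving out Asrij high replicate 3 left 25 and 1 in the first 2. Leaving out Asrij low replicate 1 left 33 calls among Zfp1 to Zfp599 and 2 among the SCAN genes.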

How the data were processed

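Whole-number gene counts for the 6 libraries, without normalization, were used as deposited by the authors. Per the labels' protocols ribosomal RNA was depleted and a stranded kit was used, although the labels' molecule field names polyA RNA. The tools were FastQC, HISAT2, SAMtools and Subread on mm10, per the submitters' processing notes. The sources used here do not give their versions, the annotation, the strand setting or how reads with several matches were counted.

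Counts were tested with R 4.3.3 and edgeR 4.0.16 (quasi-likelihood test, TMM factors, robust shrinkage, group as the only term) on the 21445 of 49997 genes kept by filterByExpr (minimum count 10, total 15), with Benjamini-Hochberg adjustment over all genes tested and a threshold of 0.05. Standard errors (SE) come from the test statistic. Libraries of 1 group differed beyond counting noise (chi-square over degrees of freedom of 82.5 or more). Alternatives used DESeq2 1.42.0, limma 3.58.1 (voom), other scalings and filters, and left out libraries; the script was also tested on simulated data. Asrij low, the shallower group, sets the limit for low genes: 3 counts in its libraries are 0.0649 to 0.121 CPM, a floor that covers counting error only.

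KRAB boxes were found with HMMER 3.4 (E at most 0.001) by a profile of 36 residues built from 134 stretches of Zfp proteins that matched a short fixed pattern, because that pattern alone missed evident boxes. Coding sequences, exon lengths and shared 50-base words come from GENCODE vM21 transcripts and gene positions from RefSeq on GRCm38.p6, the assembly behind mm10, where all 158 members matched. The members and all gene lists were chosen with earlier results of these data known. Named members were the 10 largest rises and falls among called members averaging 1 CPM or more, the 8 with most counts, the 4 not called with the smallest SE, those with a known role, and the 2 on either side of the count floor; of each pathway list up to 4 genes with the smallest p. Others are said to be picked out after their values were seen; Zfp937 and Zfp784 are such too. Libraries of like replicate number had correlations of deviations from the group means of 0.013, 0.046 and 0.225. Unlike numbers were not compared, so these values cannot decide whether the libraries were paired.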

Additional observations from a re-analysis of the deposited data

How the results depend on the processing

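Of the 34 calls among Zfp600 to Zfp999 members, 13 held under all 15 refits run, 2 higher (Zfp652, Zfp800) and 11 lower (Zfp606, Zfp608, Zfp618, Zfp651, Zfp660, Zfp710, Zfp760, Zfp799, Zfp827, Zfp831 and Zfp945). Leaving out 1 library at a time gave 5481 to 8935 calls among all genes, 16 to 34 among members, 3 to 11 of these higher and 13 to 25 lower, a members' median log2 fold change of -0.33 to -0.082 and an Ociad1 log2 fold change of 0.53 to 0.76. It gave 8 to 15 calls among KRAB corepressor and heterochromatin genes, 1 to 4 among SCAN genes, 7 to 14 among BTB genes and 25 to 56 among Zfp1 to Zfp599. With upper quartile factors 3 members were higher and 44 lower, the median was -0.51, Ociad1 was at 0.36 and 10 SCAN genes were called; with library totals 3 members were higher, the median was -0.51 and Ociad1 was at 0.36. The median was -0.38 and 8 SCAN genes were called with Asrij high replicate 2 and Asrij low replicate 3 both left out, and DESeq2 called 7 SCAN genes. Signs turned only for members that were not called. Upper quartile factors and library totals gave log2 fold changes of -0.22 and -0.21 for Zfp646, -0.22 and -0.22 for Zfp708, -0.10 and -0.11 for Zfp638, -0.17 and -0.18 for Zfp706, and -0.018 and -0.014 for Zfp667. A mean of at least 1 CPM gave -0.046 for Zfp646, -0.0702 for Zfp708 and -0.005 for Zfp706; no filter gave 0.037 for Zfp871 and 0.0297 for Zfp740. Zfp708 was at -0.025 with DESeq2 size factors and -0.024 with DESeq2, and at -0.26 with both libraries left out, where Zfp706 was at -0.13. Zfp936 was at 0.97 with limma-voom. With single libraries left out the values ran from -0.005 to 0.16 for Zfp646, -0.19 to 0.0902 for Zfp871, -0.23 to 0.0056 for Zfp687, -0.12 to 0.027 for Zfp740, -0.32 to 0.84 for Zfp708, -0.0696 to 0.22 for Zfp706, -0.0067 to 1.11 for Zfp750 and -0.83 to 2.13 for Zfp936. The cause was not tested.

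With the replicate number as a block, 33 members were called, 11 higher and 22 lower, the calls of Zfp937, Zfp950 and Zfp974 were lost, and Zfp936 was at 0.91; the numbers pair nothing in the labels. A floor of 600 counts left 30 calls among 136 members. The smaller depth of Asrij low and the few counts of members under 1 CPM limit what can be seen there.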

Other observations

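Among the 15 genes of the range below the floor of counts, Zfp996 had 17, 11 and 7 counts in the Asrij high libraries and 0, 0 and 3 counts in the Asrij low libraries, and Zfp641 had no counts in the Asrij high libraries, against 13, 0 and 16 counts in Asrij low. Zfp981 had 4, 4 and 5 counts in Asrij high, against 0, 22 and 2 counts in Asrij low, where replicate 2 held nearly all of them. These 3 genes were picked out after their values were seen and were not tested.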
